A study of Homo sapiens with 21 samples.

Results

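The genes described here are 6 cyclins that work after the start of the cell cycle: the E cyclins CCNE1 and CCNE2, the A cyclin CCNA2, the B cyclins CCNB1 and CCNB2, and CCNF, which encodes cyclin F. They were taken by gene symbol and are 6 of the 16383 genes in the deposited table; each symbol matched 1 gene. The study sequenced poly(A) RNA from IMR90, an established line of diploid fibroblasts from human lung, in 21 libraries of 7 groups with 3 libraries each. The proliferating group was labelled wild type and received neither radiation nor siRNA. The other 6 groups were irradiated, which the study used to induce senescence, a lasting exit from the cell cycle. They received 5 nM siRNA on days 4 and 7 after irradiation and were harvested on day 10. Of these groups, a pair received the non-targeting siRNAs number 3 or number 4 (NT3 and NT4, the controls), and the others received siRNA against CCND1, against CDK4, against CDK6, or against CDK4 and CDK6 together (the dual knockdown). The radiation dose and the siRNA sequences are not given in the sources used here, and neither is whether 5 nM in the dual knockdown is the total or the amount of each siRNA. Each target is named with 1 siRNA, so effects outside the target cannot be told apart from effects of its loss. Because the proliferating cells were neither irradiated nor transfected, effects of the radiation and of the transfection cannot be told apart either. The libraries of a group are labelled as replicates, but nothing says that they came from separate cultures, so the p-values measure the spread between these libraries, which may be technical.

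Cyclins are regulatory subunits that switch on cyclin-dependent kinases. D-type cyclins with CDK4 or CDK6 begin the phosphorylation of the retinoblastoma protein, which releases E2F factors; E2F factors then drive the E cyclins, which activate CDK2 for entry into S phase. Cyclin A2 works with CDK2 in S phase and with CDK1 in G2, and cyclins B1 and B2 work with CDK1 in mitosis; their genes are held silent in resting cells by the DREAM complex and are driven in cycling cells by B-MYB and FOXM1. Cyclin F activates no known kinase; it is the substrate receptor of an SCF ubiquitin ligase, and it peaks in G2. In senescent cells the retinoblastoma family and p21, the product of CDKN1A, keep most of these genes low. Their transcripts are mostly found in cycling cells, and in bulk RNA fewer cycling cells and less RNA per cell cannot be told apart.

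Promoter sequences in the RefSeq table for GRCh38.p14 were found for 5 of the 6 genes, all but CCNE2. They are shown because CCNE1 and the A, B and F cyclins have different orders of groups below, and because CCAAT boxes and the cell cycle homology region (CHR) are known elements of promoters bound by DREAM and B-MYB. Each runs 5′ to 3′ on the gene's strand over the 250 bases before the gene's start in that table. Compared with the GENCODE v44 gene models given below, that start is the same for CCNE1 and CCNA2, but the windows run 15 bases into CCNB1, 20 into CCNB2 and 53 into CCNF, and motif positions are counted from the RefSeq start. Capitals mark every CCAAT (or its reverse complement) and every CHR, searched as TTTGAA and TTCGAA on both strands. The windows are chr19:29811741-29811990 (plus strand) for CCNE1, chr4:121823884-121824133 (minus) for CCNA2, chr5:69166900-69167149 (plus) for CCNB1, chr15:59104896-59105145 (plus) for CCNB2 and chr16:2429197-2429446 (plus) for CCNF.
CCNE1: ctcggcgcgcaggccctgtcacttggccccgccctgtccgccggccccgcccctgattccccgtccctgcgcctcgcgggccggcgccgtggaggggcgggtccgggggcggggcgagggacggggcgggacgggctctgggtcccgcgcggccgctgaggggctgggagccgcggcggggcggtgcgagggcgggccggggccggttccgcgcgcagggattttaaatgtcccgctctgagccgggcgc
CCNA2: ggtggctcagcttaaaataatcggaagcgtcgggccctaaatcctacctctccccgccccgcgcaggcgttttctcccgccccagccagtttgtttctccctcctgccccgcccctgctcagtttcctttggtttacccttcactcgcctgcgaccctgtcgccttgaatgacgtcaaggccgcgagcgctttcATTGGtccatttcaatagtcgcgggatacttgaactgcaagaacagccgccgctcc
CCNB1: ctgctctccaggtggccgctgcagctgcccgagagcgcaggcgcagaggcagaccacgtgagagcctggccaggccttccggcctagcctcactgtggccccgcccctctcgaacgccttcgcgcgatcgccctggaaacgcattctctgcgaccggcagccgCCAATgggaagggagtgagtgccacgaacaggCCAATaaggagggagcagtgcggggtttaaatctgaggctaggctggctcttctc
CCNB2: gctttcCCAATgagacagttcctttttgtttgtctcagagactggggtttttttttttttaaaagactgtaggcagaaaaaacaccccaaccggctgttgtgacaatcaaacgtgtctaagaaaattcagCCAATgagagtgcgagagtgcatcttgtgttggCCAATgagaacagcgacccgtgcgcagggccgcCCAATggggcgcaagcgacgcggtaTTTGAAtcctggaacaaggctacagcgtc
CCNF: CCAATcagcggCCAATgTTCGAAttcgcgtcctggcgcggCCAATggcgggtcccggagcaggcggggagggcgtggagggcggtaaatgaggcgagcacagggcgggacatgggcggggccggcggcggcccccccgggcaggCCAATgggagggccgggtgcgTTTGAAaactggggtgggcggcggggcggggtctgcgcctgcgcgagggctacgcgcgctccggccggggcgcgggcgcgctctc

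The CCNE1 window held no match to either motif and was the richest in G and C, at 81.2%. CCNA2 held 1 CCAAT box, in the reverse orientation, with its bases at -56 to -52 from the start. CCNB1 held 2, with first bases at -87 and -55. CCNB2 held 4 CCAAT boxes, with first bases at -244, -120, -87 and -54, and 1 CHR at -29 to -24, and was the lowest in G and C, at 48.8%. CCNF held 4 CCAAT boxes and 2 CHR matches, the latter with first bases at -233 and -85. Among the 35116 windows of this length in the table, 32.0% held a CCAAT box, 9.53% held 2 or more, 2.93% held 3 or more, 14.3% held a CHR, 1.90% held 2 or more of these, and 5.05% held both motifs. None of the 5 windows held TTTCGCGC, TTTGGCGC, TTTCCCGC or TTTGCCGC, the forms of the E2F site searched on both strands, which 2.79% of all windows held. These are matches of letters, and the absence of a match says only that these letters are not in the window. The shares are over windows of any G and C content, and a link of the motifs to the orders of groups was not tested. Other forms of the CHR and of the E2F site were not searched. A window with no CHR match, such as that of CCNA2 or CCNB1, may therefore still hold another form.

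The 6 genes lie on 6 chromosomes (GENCODE v44 gene models on hg38), so they share no neighbourhood. CCNE1 (ENSG00000105173) spans chr19:29811991-29824312 on the plus strand with 12 exons, and CCNE2 (ENSG00000175305) spans chr8:94879770-94896678 on the minus strand with 12 exons. CCNA2 (ENSG00000145386) spans chr4:121816444-121823883 on the minus strand with 8 exons. CCNB1 (ENSG00000134057) spans chr5:69167135-69178245 and CCNB2 (ENSG00000157456) spans chr15:59105126-59125045, both on the plus strand with 9 exons. CCNF (ENSG00000162063) spans chr16:2429394-2458854 on the plus strand with 17 exons. Counting is not stated to use strand, and 3 of the genes share exonic bases with a gene on the other strand. CCNE2 shares 1629 exonic bases with INTS8, a subunit of the Integrator complex, and CCNA2 shares 254 with EXOSC9, a subunit of the RNA exosome. CCNF shares 527 and 219 bases with a pair of unnamed long noncoding RNAs. Reads from these stretches cannot be told apart by gene. CCNB2 has an annotated processed pseudogene, CCNB2P1, which could hold or take some of its reads.

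All 6 genes passed the filter on low values, and the values below are normalised counts, the authors' read counts divided by a factor per library. Library depth ran from 12892442 to 21822152 reads over the listed genes, and 1 read is worth 0.709 to 1.21 units. Counting error is largest for CCNE2. It rests on 36, 27 and 32 reads in the CDK6 knockdown and 8, 26 and 19 in the dual knockdown. Low reads in the dual knockdown also limit CCNB2 (43, 50 and 48 reads) and CCNA2 (50 reads in its lowest library). The targeted genes were low where the labels name them: CCND1 was 4633 ± 480.4 (SD, n = 3) in its knockdown against 39197 ± 8712 in the 6 control libraries. CDK4 was 108.1 ± 2.29 in its own knockdown and 117 ± 4.41 in the dual knockdown against 1248 ± 82.9 in the controls, and CDK6 was 773 ± 54.7 and 968 ± 34.4 against 4706 ± 655. All 12 lung fibroblast markers looked at, COL1A1 and VIM among them, were at 10 or more in every library. Of 10 markers of other lung cell types, SFTPC, PTPRC, CD3E and MYH11 were below 10 in every library, and 3 were at 10 or more in every library. EPCAM, VWF, DES and CD68 passed the filter on low values. Of these 4, 3 were called higher in the controls than in proliferating cells, where 32.6% of all tested genes were. Nearly all of the sum of these 10 came from CD68, and the sum ran from 729 to 763 in the proliferating libraries and from 967 to 1693 in the irradiated ones; its part in the differences below was not tested.

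In proliferating cells CCNB1 was the most abundant member, and the order of CCNA2 and CCNB2 depended on the transcript length used. As counts, CCNA2 (mean 1990) was above CCNB2 (mean 1367). Per kilobase of the canonical transcript, the mean level was 1481 for CCNB1, 919 for CCNB2, 724 for CCNA2, 197 for CCNF, 123 for CCNE2 and 55.8 for CCNE1. The 6 genes then fell into different orders of groups, which the plot of values by library shows, and each is described in turn with its 3 libraries in every group.

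**Figure D1:**
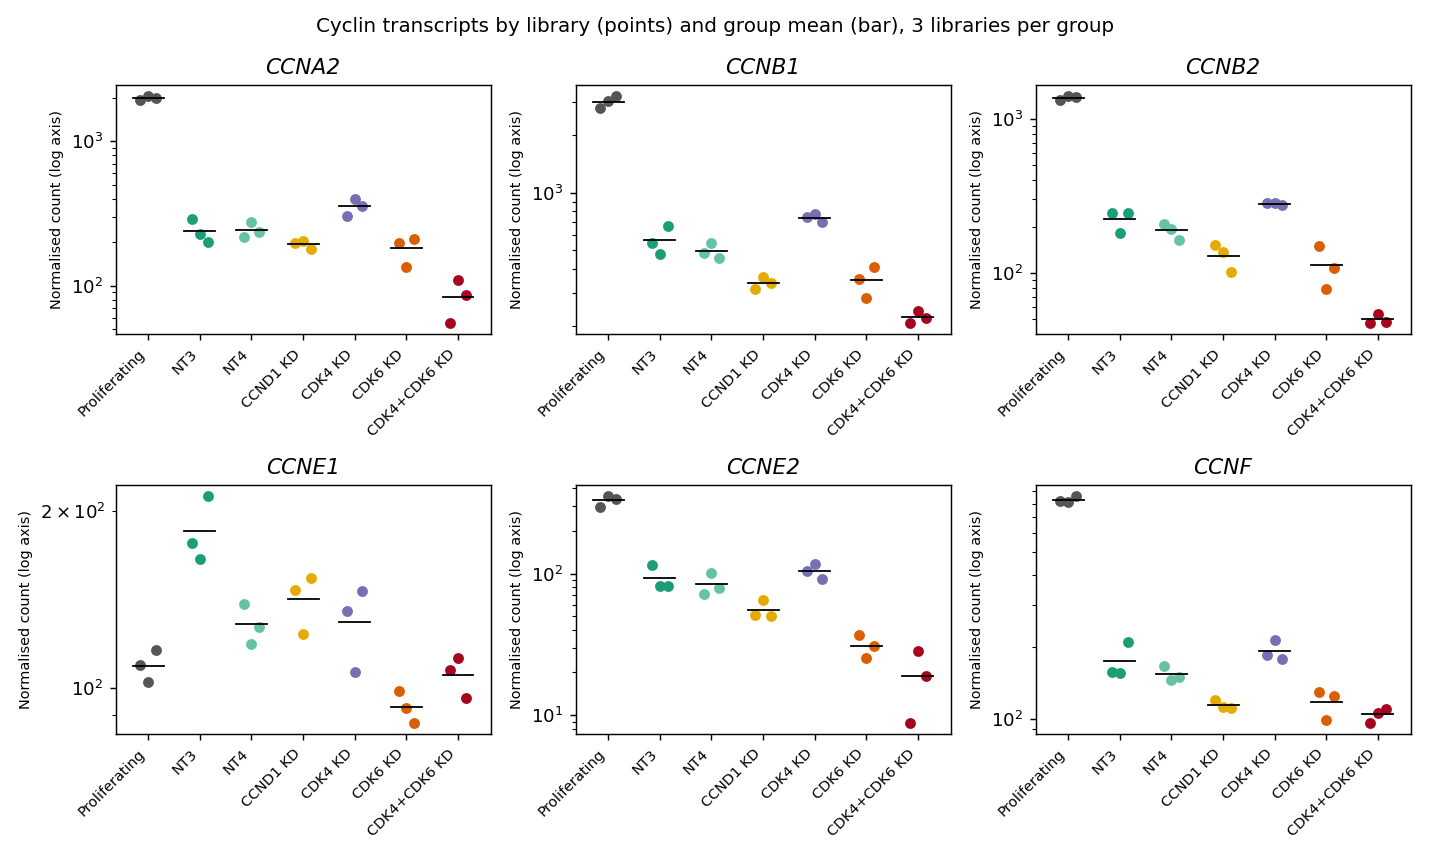
Normalised count of each cyclin gene (vertical log axis) in the 21 libraries (points) by group, with the group mean as a bar. For CCNA2, CCNB1, CCNB2, CCNE2 and CCNF the proliferating libraries lie above all others and the dual knockdown has the lowest mean, while for CCNE1 the proliferating libraries (102.2 to 116) lie among the irradiated ones (87.2 to 212).

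CCNE1, whose product with CDK2 carries cells from G1 into S phase, was the only member that was not highest in proliferating cells. Its values were 109.2, 102.2 and 116 in the proliferating libraries, 176, 166 and 212 with NT3 and 139, 119 and 127 with NT4. Every control library was above every proliferating one, and every NT3 library was above every NT4 library. The knockdowns gave 147, 124 and 154 for CCND1 and 135, 106.6 and 146 for CDK4. They gave 98.7, 92.2 and 87.2 for CDK6 and 107.1, 112.5 and 96.1 for the dual knockdown. The CCND1 and CDK4 knockdowns overlapped the NT4 libraries, and the CDK6 and dual knockdowns lay below all 6 controls and overlapped each other. The gaps in the order of group means were between NT3 and the next group, the CCND1 knockdown, and between NT4 and the proliferating cells, which overlapped the dual knockdown.

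CCNE2, the other E cyclin, was highest in proliferating cells, unlike CCNE1. It was 295, 353 and 338 in proliferating libraries, 114, 81.6 and 81.3 with NT3 and 71.2, 101.2 and 78.9 with NT4. All irradiated libraries were below all proliferating ones, and the controls overlapped each other. The values were 51.0, 65.1 and 50.1 in the CCND1 knockdown and 105.1, 117 and 92.3 in the CDK4 knockdown. They were 36.6, 25.2 and 30.7 in the CDK6 knockdown and 8.83, 28.4 and 19.0 in the dual knockdown. The CDK4 knockdown overlapped the controls, the CCND1 and CDK6 knockdowns lay below them without overlapping each other, and the dual knockdown overlapped the CDK6 knockdown. The first dual knockdown library was the lowest of all 21, at 8.83. INTS8, which overlaps CCNE2, had a mean of 672 in proliferating cells and 419 to 454 in the irradiated groups, and passed the test in none of the comparisons of a knockdown with the controls.

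CCNA2, the S and G2 phase cyclin, read 1939, 2044 and 1988 in proliferating cells, 288, 229 and 201 with NT3 and 216, 276 and 235 with NT4. The irradiated controls were all below the proliferating libraries and overlapped each other. With CCND1 siRNA it read 197, 204 and 181, and with CDK4 siRNA 301, 401 and 357. With CDK6 siRNA it read 196, 135 and 212, and with both siRNAs 55.2, 110.3 and 86.1. The CDK4 knockdown lay above all control libraries, the CCND1 and CDK6 knockdowns overlapped the controls and each other, and the dual knockdown lay below every other library. EXOSC9, which overlaps CCNA2, differed by -1.25 between the controls and proliferating cells and by -0.30 between NT4 and NT3, and was also called lower in the CCND1 knockdown (-0.24, limma adjusted p = 0.0366) and with CDK6 siRNA than with CDK4 siRNA (-0.35, adjusted p = 0.00779). In the dual knockdown it differed from the controls by -0.067 (limma adjusted p = 0.553); its part in the CCNA2 values was not tested.

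CCNB1, the main mitotic cyclin, was at 2771, 3042 and 3203 in proliferating libraries, 549, 476 and 667 with NT3 and 482, 549 and 457 with NT4. It was at 315, 362 and 339 in the CCND1 knockdown and 744, 776 and 702 in the CDK4 knockdown. It was at 355, 281 and 411 in the CDK6 knockdown and 209, 242 and 220.2 in the dual knockdown. Every CDK4 knockdown library was above every control, every CCND1 and CDK6 knockdown library was below every control, and the dual knockdown was below all of these.

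CCNB2, the second B cyclin, was laid out in a similar way. It was 1325, 1398 and 1377 in proliferating libraries, 246, 181 and 244 with NT3 and 208, 194 and 164 with NT4. The CCND1 knockdown gave 151, 137 and 102.1 and the CDK4 knockdown 283, 286 and 276. The CDK6 knockdown gave 149, 79.2 and 108.3 and the dual knockdown 47.5, 54.6 and 48.1. The CDK4 knockdown lay above all controls, the CCND1 and CDK6 knockdowns lay below all controls and overlapped each other, and the dual knockdown lay lowest, with a mean 3.66% of that in proliferating cells.

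CCNF, the ubiquitin ligase subunit, was 820.2, 814 and 860.1 in proliferating libraries, 157, 155 and 209 with NT3 and 167, 145 and 149 with NT4. The CCND1 knockdown gave 120.2, 112.03 and 110.9 and the CDK4 knockdown 186, 214 and 178. The CDK6 knockdown gave 129, 98.8 and 125 and the dual knockdown 96.02, 105.9 and 110.1. The CDK4 knockdown overlapped the controls, and the CCND1, CDK6 and dual knockdowns lay below all controls within a narrow range, where the CDK6 knockdown overlapped both others.

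The first comparison set the 6 irradiated control libraries against the proliferating cells, and asks how these transcripts stood in senescent cells. Of the 6 genes 5 fell and CCNE1 rose. In percent of the proliferating mean, the controls held 12.1% for CCNA2, 15.1% for CCNB2, 17.6% for CCNB1, 19.7% for CCNF and 26.8% for CCNE2, against 144% for CCNE1. All 6 differences passed the limma test (Benjamini-Hochberg adjusted p under the threshold of 0.05) where 68.6% of the 11579 tested genes did, 36.1% lower and 32.6% higher, so that being called was common here. The log2 difference was -3.05 for CCNA2 (SE 0.17, limma adjusted p = 5.12e-13), -2.74 for CCNB2 (SE 0.15, adjusted p = 5.76e-13) and -2.51 for CCNB1 (SE 0.11, adjusted p = 7.08e-15). It was -2.35 for CCNF (SE 0.11, limma adjusted p = 2.46e-14) and -1.90 for CCNE2 (SE 0.23, adjusted p = 2.45e-07). CCNE1 was higher by 0.49 (SE 0.12, limma adjusted p = 0.000757). Its call rested on NT3: the difference was 0.75 with NT3 alone as the control (limma adjusted p = 4.05e-05) and 0.23 with NT4 alone (adjusted p = 0.138). Centring each library on its median shifted all genes by 0.11 in this comparison and moved the share of called genes that were higher from 47.4% to 57.9%, and the 6 cyclins kept their directions.

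Between the controls, 1 of the 6 genes differed, where 27.8% of all tested genes did. CCNE1 was lower with NT4 than with NT3, with a log2 difference of -0.52 (SE 0.13, limma adjusted p = 0.00596), with no overlap. The other 5 differed by -0.24 (CCNB2) to 0.026 (CCNA2), with limma adjusted p from 0.296 to 0.939. Results on CCNE1 below are therefore given against each control siRNA where the choice matters. The 4 comparisons with knockdowns that follow share the same 6 control libraries, so a control library that stands high or low enters all of them.

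Knockdown of CCND1, the D-type cyclin partner of CDK4 and CDK6, lowered 4 of the 6 genes, where 31.0% of all tested genes were called and 14.4% were called lower. CCNB2 was at 63.0% and CCNB1 at 63.8% of the control mean, CCNE2 at 62.9% and CCNF at 69.9%. On the log2 scale CCNB1 differed by -0.64 (SE 0.11, limma adjusted p = 0.000103), CCNB2 by -0.67 (SE 0.15, adjusted p = 0.002) and CCNF by -0.50 (SE 0.11, adjusted p = 0.00113). CCNE2 differed by -0.65 (SE 0.23, limma adjusted p = 0.0379). CCNA2 differed by -0.30 (adjusted p = 0.18) and CCNE1 by -0.12 (adjusted p = 0.451), which did not pass the limma test. The call on CCNE2 was lost without NT3 replicate 1 (-0.57), NT4 replicate 2 (-0.58), CCND1 knockdown replicate 1 (-0.60) or replicate 3 (-0.58), at nearly the same difference each time, and against NT4 alone. It was also lost with no filter (limma adjusted p = 0.09) and quantile normalization (adjusted p = 0.0588), and 13 of 22 alternatives kept it. CCNE1 was lower than with NT3 alone (-0.38, limma adjusted p = 0.0282) and differed by 0.14 from NT4 alone (adjusted p = 0.52). The summed fibroblast markers were 777494 to 833484 here, above the 558902 to 764717 of the controls, and their part was not tested.

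Knockdown of CDK4 raised 3 of the 6 cyclins. CCNA2, CCNB1 and CCNB2 rose, to 147%, 139.8% and 137% of the control mean, where 16.0% of all tested genes were called and 8.46% were called higher. The log2 difference was 0.55 for CCNA2 (SE 0.17, limma adjusted p = 0.0273), 0.49 for CCNB1 (SE 0.11, adjusted p = 0.00249) and 0.46 for CCNB2 (SE 0.15, adjusted p = 0.0397). CCNE2 differed by 0.26 (limma adjusted p = 0.508), CCNF by 0.24 (adjusted p = 0.142) and CCNE1 by -0.26 (adjusted p = 0.145), and these did not pass. The raised level of CCNA2 was 17.7% of that in proliferating cells, and those of CCNB1 and CCNB2 were 24.6% and 20.6%. The summed markers of other lung cell types were also highest in these 3 libraries, at 1590 to 1693 against 967 to 1476 in the controls. Of the 4 tested, CD68, which made up most of that sum, was higher by 0.48 (limma adjusted p = 3.91e-06). EPCAM, VWF and DES were not called, and PTPRC, CD3E, SFTPC and MYH11 stayed below 10. The part of these markers in the result was not tested.

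Of these 3 calls, that on CCNB1 was kept under every alternative tried. CCNB2 lost its call against NT3 alone (0.35, limma adjusted p = 0.152) and without NT3 replicate 2 (0.39), NT4 replicate 2 (0.47), NT4 replicate 3 (0.42) or any 1 of the CDK4 knockdown libraries (0.45 to 0.48). CCNA2 lost it against NT4 alone (0.54, limma adjusted p = 0.0765) and without NT4 replicate 1 (0.51), CDK4 knockdown replicate 2 (0.46) or replicate 3 (0.54). CCNF gained a call without NT3 replicate 3 (0.31, limma adjusted p = 0.0249). CCNE1 was lower than with NT3 alone (-0.52, adjusted p = 0.00669) and differed by 0.0032 from NT4 alone (limma adjusted p = 0.992).

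Knockdown of CDK6, the other kinase of the D-type cyclins, lowered all 6 genes, where 41.9% of all tested genes were called and 20.8% were called lower. The E cyclins moved unequally: CCNE2 was at 34.995% of the control mean and CCNE1 at 59.2%. CCNB2 was at 54.3%, CCNB1 at 65.9%, CCNF at 71.8% and CCNA2 at 75.2%. The log2 difference was -1.48 for CCNE2 (SE 0.23, limma adjusted p = 2.76e-05), -0.91 for CCNB2 (SE 0.15, adjusted p = 5.58e-05) and -0.72 for CCNE1 (SE 0.12, adjusted p = 3.39e-05). It was -0.61 for CCNB1 (SE 0.11, limma adjusted p = 9.26e-05) and -0.47 for CCNF (SE 0.11, adjusted p = 0.0012). CCNE1 differed by -0.98 from NT3 alone and by -0.46 from NT4 alone, and passed against each (limma adjusted p = 4.26e-06 and 0.011). CCNA2 passed narrowly, at -0.42 (SE 0.17, limma adjusted p = 0.0461), with libraries that overlapped the controls. Its call was lost without NT3 replicate 1 (-0.35), NT4 replicate 2 (-0.37), NT4 replicate 3 (-0.43), CDK6 knockdown replicate 1 (-0.50) or CDK6 knockdown replicate 2 (-0.23), and against either control siRNA alone. It was also lost with no filter (limma adjusted p = 0.114), median centring (0.054), quantile normalization (0.0518) and a fit of only the groups compared (0.0648). Of 22 alternatives, 9 kept the call on CCNA2.

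A direct comparison of the single knockdowns placed all 6 cyclins lower with CDK6 siRNA than with CDK4 siRNA, where 34.8% of all tested genes differed and 17.3% were lower. The log2 difference was -1.74 for CCNE2 (SE 0.27, limma adjusted p = 2.71e-05), -1.37 for CCNB2 (SE 0.17, adjusted p = 2.39e-06) and -1.10 for CCNB1 (SE 0.12, adjusted p = 4.01e-07). It was -0.98 for CCNA2 (SE 0.19, limma adjusted p = 0.000414), -0.71 for CCNF (SE 0.12, adjusted p = 0.000102) and -0.47 for CCNE1 (SE 0.13, adjusted p = 0.00905). No library of one knockdown overlapped the other for any of the 6, and 51.7% of all tested genes were likewise free of overlap. The call on CCNE1 was lost without CDK4 knockdown replicate 3 (-0.37, limma adjusted p = 0.0599). The CCND1 knockdown, set directly against the CDK6 knockdown, was higher for the E cyclins CCNE1 (0.60, limma adjusted p = 0.00404) and CCNE2 (0.83, adjusted p = 0.0471), where 12.2% of all tested genes were called and 6.78% were called higher. The differences for CCNA2, CCNB1, CCNB2 and CCNF were 0.12, -0.031, 0.24 and -0.03, with 95% intervals of -0.28 to 0.52, -0.28 to 0.22, -0.12 to 0.60 and -0.29 to 0.23, and did not pass. The call on CCNE2 was lost without any 1 of the 6 libraries compared, at differences of 0.70 to 0.96.

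**Figure D2:**
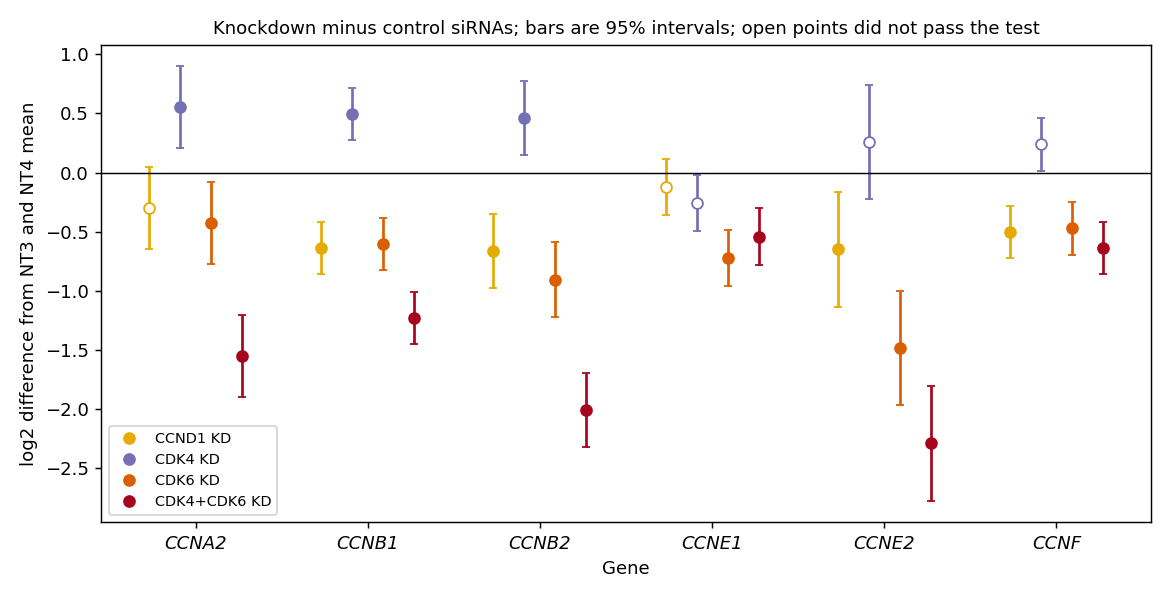
log2 difference of each cyclin gene from the mean of the NT3 and NT4 controls (vertical axis) in the 4 knockdowns (colours); bars are 95% intervals, and open points did not pass the limma test. The CDK4 knockdown points lie above 0 for 5 of the 6 genes (0.24 to 0.55) and at -0.26 for CCNE1, and the dual knockdown lies lowest for 5, from -0.64 for CCNF to -2.29 for CCNE2.

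With CDK4 and CDK6 knocked down together, all 6 genes fell, where 44.0% of all tested genes were called and 21.5% were called lower, and for each of the 6 every library was below every control; the groups did not overlap for 28.3% of all tested genes. CCNE2 was at 21.3% of the control mean, CCNB2 at 24.3%, CCNA2 at 34.8% and CCNB1 at 42.2%. CCNF at 63.6% and CCNE1 at 67.2% had the highest shares. Differences from the controls on the log2 scale were -2.29 for CCNE2 (SE 0.23, limma adjusted p = 6.53e-08), -2.01 for CCNB2 (SE 0.15, adjusted p = 6.8e-10) and -1.55 for CCNA2 (SE 0.17, adjusted p = 1.49e-07). They were -1.23 for CCNB1 (SE 0.11, limma adjusted p = 5.33e-09), -0.64 for CCNF (SE 0.11, adjusted p = 4.93e-05) and -0.54 for CCNE1 (SE 0.12, adjusted p = 0.000636). Against NT4 alone CCNE1 differed by -0.28 and did not pass (limma adjusted p = 0.101). The summed fibroblast markers were higher in these libraries than in the controls, at 804536 to 1004970 against 558902 to 764717 in the controls, and 8 of the 12 were called higher and 1 lower; their part in the result was not tested.

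The dual knockdown was then set against the sum of the single knockdowns, which asks whether the effects added on the log2 scale. For CCNA2, CCNB1 and CCNB2 the dual knockdown was lower than the sum, with CDK4 siRNA higher than the controls when given alone and the dual knockdown lower than CDK6 siRNA alone. The sum of the single differences was 0.13 for CCNA2, -0.11 for CCNB1 and -0.44 for CCNB2, and the measured dual differences were -1.55, -1.23 and -2.01. The departure was -1.68 for CCNA2 (SE 0.26, limma adjusted p = 0.000199), -1.57 for CCNB2 (SE 0.23, adjusted p = 0.00014) and -1.12 for CCNB1 (SE 0.16, adjusted p = 0.000114). These 3 of 6 compare with 6.35% of all tested genes called and 3.71% called lower, and the 3 calls held under every alternative tried. For CCNE2 the departure was -1.07 (95% interval -1.81 to -0.33, limma adjusted p = 0.0781), for CCNF -0.41 (95% interval -0.75 to -0.067, adjusted p = 0.152) and for CCNE1 0.44 (95% interval 0.07 to 0.80, adjusted p = 0.154), and these did not pass. The CCNE2 departure turned on single libraries: it was -1.43 with a call without dual knockdown replicate 2 (limma adjusted p = 0.0095) and -0.63 with none without replicate 1 (adjusted p = 0.214). CCNF gained a call without NT3 replicate 3 (-0.48, limma adjusted p = 0.0355). CCNE2 also passed in the DESeq2 fit of the recovered reads (-0.97, adjusted p = 0.043), and CCNE1 with NT3 alone as the control (0.70, limma adjusted p = 0.015) but not with NT4 alone (0.18, adjusted p = 0.72). Whether the departures of the 6 genes differ from each other was not tested.

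**Figure D3:**
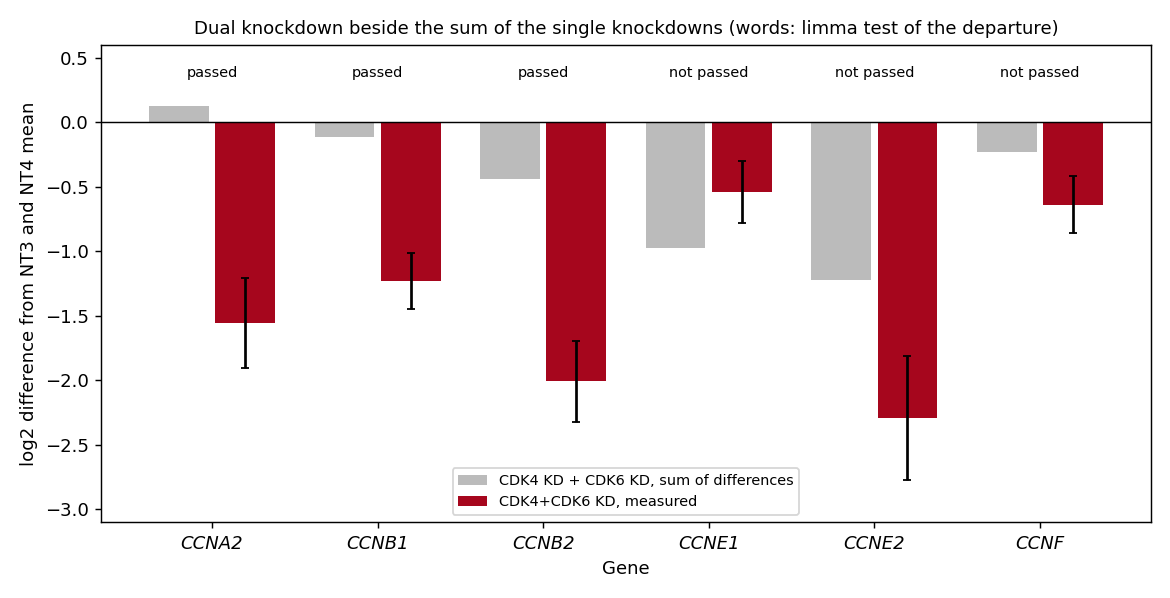
For each cyclin gene, the sum of the log2 differences in the CDK4 and CDK6 knockdowns (grey) beside the difference measured in the dual knockdown (red, with its 95% interval), both from the mean of the NT3 and NT4 controls. The dual bar reaches -1.55 for CCNA2 beside a sum of 0.13, and for CCNE1 it is the shorter bar, at -0.54 beside -0.98.

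Against CDK6 siRNA alone, the dual knockdown was lower for CCNA2 (-1.13, SE 0.19, limma adjusted p = 0.000322), CCNB1 (-0.63, SE 0.12, adjusted p = 0.00123) and CCNB2 (-1.10, SE 0.17, adjusted p = 0.000142). These 3 of 6 compare with 13.0% of all tested genes called and 6.94% called lower. CCNE2 differed by -0.81 (limma adjusted p = 0.0503), by -1.17 with a call without dual knockdown replicate 2 (adjusted p = 0.00407), and by -0.38 without replicate 1 (adjusted p = 0.319). CCNF differed by -0.17 (95% interval -0.42 to 0.089) and CCNE1 by 0.18 (95% interval -0.10 to 0.46), and did not pass. Against CDK4 siRNA alone, 5 of 6 were lower in the dual knockdown, from -2.55 for CCNE2 to -0.88 for CCNF, where 30.6% of all tested genes were called and 14.8% were called lower. CCNE1 differed by -0.29 there (limma adjusted p = 0.111), with a call once CDK4 knockdown replicate 2 was left out (-0.42, adjusted p = 0.0312).

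The CCND1 knockdown left 5 of the 6 genes higher than the dual knockdown did, where 20.3% of all tested genes were called and 11.2% were called higher. On the log2 scale the differences were 1.64 for CCNE2, 1.34 for CCNB2, 1.25 for CCNA2 and 0.59 for CCNB1, with limma adjusted p from 8.39e-06 to 0.00121. CCNE1 was higher by 0.42 (adjusted p = 0.028 by limma), a call lost without CCND1 knockdown replicate 1 (0.39) or replicate 3 (0.36) and without dual knockdown replicate 1 (0.44) or replicate 3 (0.36). CCNF differed by 0.14 (95% interval -0.12 to 0.39) and did not pass. Set against proliferating cells, the dual knockdown was lower for 5 of the 6, where 65.6% of all tested genes were called and 32.9% were called lower. CCNB2 stood at 3.66% of the proliferating mean, CCNA2 at 4.21%, CCNE2 at 5.70%, CCNB1 at 7.44% and CCNF at 12.5%. CCNE1 stood at 96.4%, a log2 difference of -0.053 (95% interval -0.33 to 0.22, limma adjusted p = 0.741) whose sign turned under median centring (0.078) and quantile normalization (0.17) and without dual knockdown replicate 3 (0.0099). Median centring also moved the share of called genes that were higher from 49.9% to 61.1% in this comparison.

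The unequal movement of the pair of E cyclins was tested as a log2 ratio within each library, log2(CCNE2 + 1) minus log2(CCNE1 + 1), whose size depends on transcript length and whose change between groups does not. This ratio and the next were chosen with earlier results of these data known, so their p-values are no independent support. The ratio was 1.58 ± 0.18 (SD, n = 3) in proliferating cells and -0.81 ± 0.39 (SD, n = 6) in the controls. It was -1.34 ± 0.37 in the CCND1 knockdown, -0.30 ± 0.40 in the CDK4 knockdown, -1.57 ± 0.23 in the CDK6 knockdown and -2.56 ± 0.79 in the dual knockdown (SD, n = 3 each). In exact two-sided permutation tests over libraries, with 84 splits and a smallest possible p of 0.0119, the controls differed from proliferating cells by -2.39 (exact p = 0.0119, adjusted over 10 ratio tests p = 0.0238). The dual knockdown differed from the controls by -1.75 (exact p = 0.0119, adjusted p = 0.0238) and the CDK6 knockdown by -0.76 (exact p = 0.0238, adjusted p = 0.0397). The CCND1 knockdown (-0.53, exact permutation adjusted p = 0.149) and the CDK4 knockdown (0.52, adjusted p = 0.159) did not pass. The call in the CDK6 knockdown was kept without NT3 replicate 3 and lost without any other of the 9 libraries compared. It was lost, for instance, without NT3 replicate 1 (-0.72, exact permutation adjusted p = 0.0765), NT4 replicate 1 (-0.79, adjusted p = 0.0595) or NT4 replicate 3 (-0.73, adjusted p = 0.0765). The call in the dual knockdown was kept without any 1 control library and lost without any 1 of its own (exact permutation adjusted p = 0.051 each). Without 1 of 3 libraries of a group the smallest exact p is 0.0357, which became 0.051 after adjustment. That adjusted value also depends on the other ratio tests. With those as they stood, no call could be kept without 1 of a group's own 3 libraries, in the CDK6 knockdown as well. Without CDK6 knockdown replicate 2 the difference was -0.63 and its exact permutation adjusted p was 0.149, above 0.051. The call between controls and proliferating cells was also lost without any 1 proliferating library (exact permutation adjusted p = 0.051 each). Without 1 of its own libraries, the difference in the dual knockdown lay between -2.06 (without replicate 2) and -1.30 (without replicate 1).

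The ratio of CCNB1, the mitotic cyclin, to CCNE1 was 4.77 ± 0.11 (SD, n = 3) in proliferating cells and 1.77 ± 0.24 (SD, n = 6) in the controls, on the same log2 scale. The controls differed from proliferating cells by -3.001 (exact permutation p = 0.0119, adjusted p = 0.0238). The CDK4 knockdown raised it by 0.75 over the controls and the dual knockdown changed it by -0.69 (exact permutation adjusted p = 0.0238 for each). Each of these calls, that against proliferating cells included, was kept without any 1 control library. Each was lost without any 1 library of the group of 3 (exact permutation adjusted p = 0.051 each). These stood at the smallest exact p, which could not pass with the other ratio tests as they were. The CCND1 knockdown differed by -0.51 (exact permutation adjusted p = 0.051) and the CDK6 knockdown by 0.12 (adjusted p = 0.571), and neither passed. The CDK6 value turned to -0.052 without CDK6 knockdown replicate 3, and the CCND1 difference passed without NT3 replicate 2 (-0.57, exact permutation adjusted p = 0.0298). The plot of both ratios by library shows the groups that overlap.

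**Figure D4:**
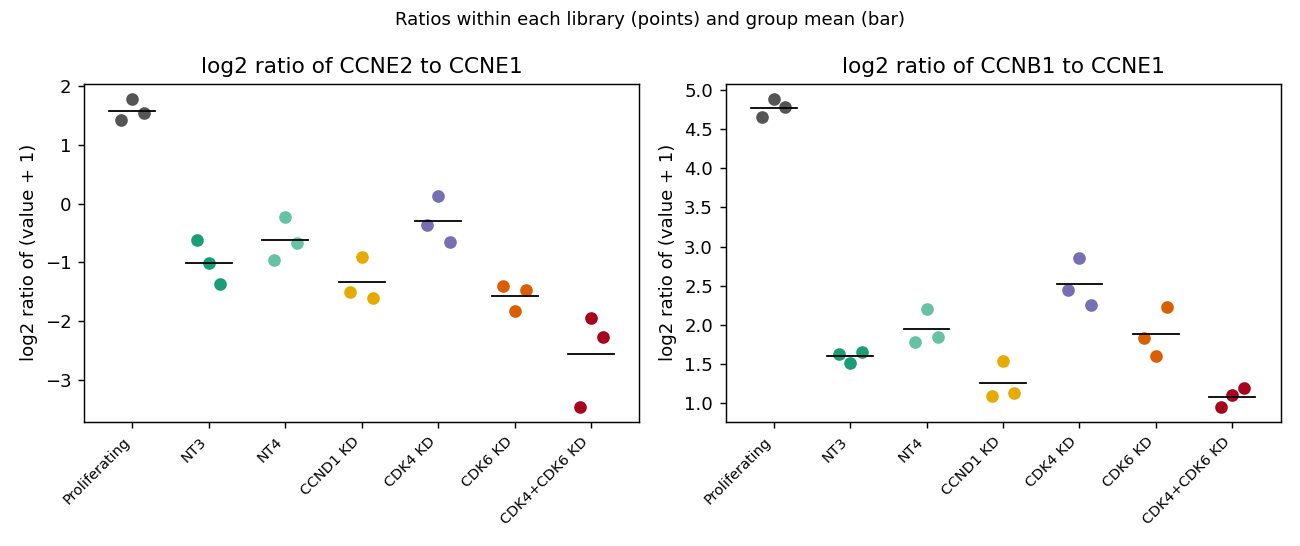
log2 ratio of CCNE2 to CCNE1 and of CCNB1 to CCNE1 (vertical axes, after adding 1 to each value) in each library (points) by group, with the group mean as a bar. For CCNE2 to CCNE1 the mean falls from 1.58 in proliferating cells to -2.56 in the dual knockdown, and for CCNB1 to CCNE1 the CDK4 knockdown (2.52) is the highest irradiated group.

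Across the 18 irradiated libraries, the members other than CCNE1 followed each other, with Pearson r of log2(value + 1) between 0.777 and 0.951 for each pair of CCNA2, CCNB1, CCNB2, CCNE2 and CCNF. CCNE1 correlated with these 5 at r of 0.364 to 0.591. These are descriptions over libraries that fall into 6 groups of 3, so the points are not independent. The genes most like CCNA2 were KIF11 (0.967), NUSAP1 (0.964) and ANLN (0.962), those most like CCNB1 were TPX2 (0.966), NCAPG2 (0.963) and PTTG1 (0.955), and those most like CCNB2 were TPX2 (0.978), RRM2 (0.977) and TACC3 (0.972). KIF11, TPX2, NUSAP1, ANLN and TACC3 encode proteins of the spindle or the cleavage furrow, PTTG1 encodes securin, NCAPG2 a condensin subunit and RRM2 a subunit of ribonucleotide reductase. CCNE2 was most like CDC45 (0.963), PSMC3IP (0.955) and SHMT1 (0.951), of which CDC45 is a subunit of the replicative helicase and SHMT1 a folate enzyme. CCNF was most like HMGB2 (0.959), ZWINT (0.935) and CDKN2C (0.929), of which CDKN2C is an inhibitor of CDK4 and CDK6. CCNE1 was most like CHCHD3 (0.937), VNN3P (0.909) and PRPF4 (0.903), of which CHCHD3 is a mitochondrial protein and PRPF4 a splicing factor.

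The kinases that the A, B and E cyclins activate are CDK1 and CDK2. CDK1, the mitotic kinase, was 1423 ± 34.7 in proliferating cells (SD, n = 3), 203 ± 21.2 in the controls (SD, n = 6), 255 ± 16.5 in the CDK4 knockdown, 115 ± 26.4 in the CDK6 knockdown and 36.8 ± 4.14 in the dual knockdown. Its log2 differences from the controls were 0.33 (limma adjusted p = 0.0863), -0.83 (adjusted p = 2.36e-05) and -2.43 (adjusted p = 3.71e-12), with a departure from the sum of -1.93 (adjusted p = 1.3e-06). The departures of CCNB1 and CCNB2 were given above. CDK2, the partner of cyclins E and A, was 2286 ± 117 in proliferating cells, 1169 ± 27.0 with NT3, 919 ± 31.2 with NT4, 880.2 ± 35.1 in the CCND1 knockdown, 504 ± 8.28 in the CDK4 knockdown, 485 ± 10.996 in the CDK6 knockdown and 281 ± 40.7 in the dual knockdown. It fell with CDK4 siRNA by 1.04 on the log2 scale (SE 0.066, limma adjusted p = 4.73e-10) and with CDK6 siRNA by 1.10 (adjusted p = 4.41e-11), and its difference in the dual knockdown was -1.89 (adjusted p = 6.28e-15), with a departure from the sum of 0.25 that did not pass (95% interval 0.037 to 0.45, adjusted p = 0.158). In the CDK4 knockdown CCNA2 was above and CDK2 below the controls.

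Of 14 listed partner kinases and their switches, 13 were tested, CDK1 and CDK2 among them. In the controls against proliferating cells 1 rose and 11 fell (median log2 difference -1.32 against -0.026 over all tested genes). The gene that rose was CDKN1A, which encodes the inhibitor p21, by 2.55 (limma adjusted p = 3.93e-21). These were 84.6% lower, against 36.1% of all tested genes. The CDK6 knockdown lowered 8 and the dual knockdown 9 (medians -0.39 and -0.74), or 61.5% and 69.2% against 20.8% and 21.5% of all tested genes. Over all tested genes the medians were -0.0055 in the CCND1 knockdown, 0.0028 in the CDK4 knockdown, -0.01 in the CDK6 knockdown, 0.0031 in the dual knockdown and -0.0026 for the departure from the sum, against which the lists below can be read. The shares of all tested genes called lower were 36.1% in the controls against proliferating cells, 14.4% in the CCND1, 7.55% in the CDK4, 20.8% in the CDK6 and 21.5% in the dual knockdown, and 3.71% for the departure. Those called higher were 32.6% in the controls, 8.46% in the CDK4 and 22.5% in the dual knockdown. In the dual knockdown the phosphatase gene CDC25C differed by -2.41, CDC25A by -1.03, CKS2 by -1.03 and CKS1B by -0.61, all called. CDKN1A differed by -0.74 and CDKN1B, which encodes p27, by 0.39 (limma adjusted p = 0.00254), the latter the only rise. WEE1, which encodes the kinase that restrains CDK1, fell in the controls (-1.32) and was not called in any knockdown against the controls. The CDK4 knockdown raised CKS1B (0.45) and lowered CDK2, CDKN1A (-0.49) and CDC25B (-0.63), the last named after its value was seen.

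Of 20 tested transcription factors of the cyclin genes, 19 fell in the controls against proliferating cells (median -0.67; 36.1% of all tested genes fell) and LIN37, a DREAM subunit, rose (0.38). E2F1 differed by -1.71, E2F8 by -3.37, FOXM1 by -2.60, MYBL2, which encodes B-MYB, by -3.06, RBL1 by -2.31 and RB1 by -0.74. In the dual knockdown 12 fell and 1 rose (median -0.26), where 21.5% of all tested genes fell and 22.5% rose. FOXM1 differed there by -2.42 (SE 0.078, limma adjusted p = 2.63e-15), MYBL2 by -2.41 (adjusted p = 3.88e-12) and E2F1 by -1.30 (adjusted p = 7.33e-10). Their departures from the sum were -1.83, -1.51 and -0.62, all called. The CDK4 knockdown lowered E2F4 and TFDP2 and raised 0 of the 20 by limma (2 were higher at an unadjusted p under 0.05, and edgeR and DESeq2 on the recovered reads called 1 higher each). FOXM1 differed by 0.085 there (limma adjusted p = 0.522), MYBL2 by 0.28 (adjusted p = 0.149) and E2F4, with the largest fall, by -0.45 (adjusted p = 3.16e-06). The CCND1 and CDK6 knockdowns lowered 10 and 9 of the 20, where 14.4% and 20.8% of all tested genes were lower. RB1 was not called in any of the 4 knockdowns.

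The machinery that destroys cyclins was looked at next. Of 21 genes tested, 14 fell and 4 rose in the controls (median -0.43), where 36.1% of all tested genes fell and 32.6% rose, the risers being ANAPC10, ANAPC13, SKP1 and FBXW7. CDC20, the mitotic activator of the anaphase-promoting complex, differed by -3.12, the inhibitor FBXO5 by -2.49, and FZR1, the activator in G1, by -0.33. The F-box gene SKP2 differed by -1.28, while FBXW7, whose product targets cyclin E, rose by 0.56. In the dual knockdown 6 rose and 5 fell (median 0.046), which is 28.6% and 23.8% of the list and near the 22.5% and 21.5% of all tested genes. CDC20 (-2.50), UBE2C (-2.55) and FBXO5 (-1.26) fell there, SKP2 rose (0.31, limma adjusted p = 0.0206), and FZR1 (0.0071) and FBXW7 (-0.15) did not pass. In the CDK4 knockdown CDC20 rose by 0.49 (limma adjusted p = 0.0109), CUL1 by 0.27 and CDC23 fell by 0.51 (adjusted p = 7.97e-05).

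Known substrates of the cyclin F ligase were looked at beside CCNF. All 9 tested were called lower in the controls than in proliferating cells (median -1.71), as 36.1% of all tested genes were. In the dual knockdown 7 fell, where 21.5% of all tested genes did (median -1.30 against -0.64 for CCNF): RRM2, a subunit of ribonucleotide reductase, differed by -2.97 (SE 0.10, limma adjusted p = 5.48e-15), NUSAP1 by -2.26 and the centriole gene CCP110 by -0.46. In the CDK4 knockdown 2 of the 9 rose by limma and 3 by edgeR and by DESeq2, where 8.46% of all tested genes rose by limma: RRM2 rose by 0.36 (adjusted p = 0.0193 by limma) and NUSAP1 by 0.42 (adjusted p = 0.0378). These are transcript levels, and the ligase acts on proteins, which were not measured. SLBP, FZR1, E2F1 and RBL2 stand in this list and in another.

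Lists of genes that peak in G1/S and in G2/M give the background of the cycle for the members. Of 20 G1/S genes, all fell in the controls against proliferating cells, in the CDK6 knockdown and in the dual knockdown (medians -2.26, -0.74 and -1.14), 14 fell in the CCND1 knockdown (-0.41), and limma called 0 in the CDK4 knockdown (0.069; 3 were higher at an unadjusted p under 0.05, and edgeR and DESeq2 on the recovered reads called 0 as well). Of 19 G2/M genes, all fell in the controls and the dual knockdown (medians -3.04 and -2.23), 18 fell in the CCND1 and CDK6 knockdowns (-0.70 and -0.80), and 9 rose in the CDK4 knockdown (0.35; 13 by edgeR and by DESeq2), where 0 fell by any of the 3 tools or at an unadjusted limma p under 0.05. KIF20A, a mitotic kinesin, rose most in the CDK4 knockdown, by 0.74 (limma adjusted p = 0.000169). In the dual knockdown BUB1, a spindle checkpoint kinase, had the largest fall of the G2/M genes (-2.82) and CDC45 that of the G1/S genes (-2.82). The departure from the sum was negative and called for 7 of the 20 G1/S genes (median -0.37) and for 18 of the 19 G2/M genes (median -1.75). Of all tested genes, 3.71% had a called negative departure.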

How the data were processed

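Poly(A) RNA from 21 IMR90 libraries was sequenced, and the authors deposited 1 table of signal values, which per the file headers are normalised counts per gene. Per the submitters' processing notes, Trimmomatic 0.38.1, HISAT2 2.2.1, featureCounts 2.0.3, FastQC 0.74, MultiQC and DESeq2 2.11.40.8 were used with hg38; their roles, settings and annotation are not given in the sources used here. In each library 100% of the values were whole multiples of 1 value (within 0.02 reads), so whole reads could be recovered, 12892442 to 21822152 per library. Each column was assigned to a group by its name; library numbers follow column order and are names only. The series' design text numbers the control siRNAs 1 and 2 where the sample titles say 3 and 4, and the titles were followed.

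The test was limma 3.58.1 (R 4.3.3), trended and two-sided, on log2(value + 1), fitted to all 7 groups and 11579 genes that reached 10 or more in 3 or more libraries, with p-values adjusted by Benjamini-Hochberg over all genes in each of 13 comparisons (threshold 0.05). Log2 differences are on that scale and understate changes of low genes. edgeR 4.0.16 and DESeq2 1.42.0 on the recovered reads were alternatives, beside other pseudocounts (0.1 and 10), filters, scalings, controls and leaving out each library. The script was tested on simulated data.

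The 6 cyclins, the gene lists and the tests were chosen with earlier results of these data known. Named in addition were the targeted genes, fixed members of the lists, each list's largest called rise and fall in the dual and CDK4 knockdowns, and the 3 genes most correlated with each cyclin. E2F7, LIN9, CCNY and CCNYL1 were listed and not analysed here. Promoter sequences are from RefSeq (GRCh38.p14) and gene models from GENCODE v44.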

Additional observations from a re-analysis of the deposited data

Results flagged for a closer look

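These 3 results met a rule set for a closer look, that an effect differs between groups by a test of the difference itself. The rule was met because the effect of CDK4 siRNA differed with and without CDK6 siRNA, measured as the distance between the dual knockdown and the single knockdowns added together. The departure was -1.68 on the log2 scale for CCNA2 (limma adjusted p = 0.000199), -1.12 for CCNB1 (limma adjusted p = 0.000114) and -1.57 for CCNB2 (limma adjusted p = 0.00014). In CCNA2, CDK4 siRNA alone went with a difference of 0.55 from the controls, and in the presence of CDK6 siRNA with a difference of -1.13. The same pair of values was 0.49 and -0.63 for CCNB1 and 0.46 and -1.10 for CCNB2. Groups of 3 libraries are too small to be looked at for single libraries that stand apart.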

How the results depend on the processing

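Of the counts of called members, all but 3 stayed within 1.5 times of the reported count under every alternative. For NT4 against NT3 the count was 0 in a limma fit of those groups alone (1 at an unadjusted p under 0.05; 1 by edgeR and 1 by DESeq2). For the CDK4 knockdown it was 1 with no filter and 1 to 4 leaving out 1 library, 1 without CDK4 knockdown replicate 2 or replicate 3. For the CCND1 against the CDK6 knockdown it was 1 with pseudocount 0.1, with no filter and in a fit of the irradiated libraries alone, and 1 leaving out any of the 6 libraries. For the log2 ratios, NT3 alone as the control gave, for CCNE2 to CCNE1, -2.59 (controls against proliferating), -0.57 (CDK6 knockdown) and -1.56 (dual), and for CCNB1 to CCNE1 -3.17, 0.92 (CDK4 knockdown) and -0.52 (dual). NT4 alone gave -2.20, -0.95 and -1.94, and -2.83, 0.58 and -0.86, with -0.055 for CCNB1 to CCNE1 in the CDK6 knockdown. With 3 libraries against 3 the smallest exact p is 0.1, so none of these can pass. Pseudocount 10 gave -0.59 for CCNE2 to CCNE1 in the CDK6 knockdown, no longer past the threshold, and -0.51 for CCNB1 to CCNE1 in the CCND1 knockdown, now past it. Leaving out 1 library, CCNE2 to CCNE1 ranged from -2.51 to -2.28 (controls against proliferating), -0.87 to -0.63 (CDK6 knockdown) and -2.06 to -1.30 (dual), and CCNB1 to CCNE1 from -3.09 to -2.94, -0.66 to -0.43 (CCND1), 0.58 to 0.88 (CDK4), -0.052 to 0.26 (CDK6) and -0.74 to -0.60 (dual). Signs turned for CCNE1 against NT4 alone in the CCND1 knockdown (0.14) and the CDK4 knockdown (0.0032). They turned for CCNE1 in the dual knockdown against proliferating cells with median centring (0.078) and quantile normalization (0.17), and from -0.10 to 0.0099 leaving out 1 library. They also turned leaving out 1 library for CCNA2 (-0.090 to 0.17) and CCNE2 (-0.28 to 0.024) between NT4 and NT3, and between the CCND1 and CDK6 knockdowns for CCNA2 (-0.076 to 0.25), CCNB1 (-0.18 to 0.095) and CCNF (-0.15 to 0.043). The cause was not tested. Of 1518 values of single members under the alternatives, 1439 kept direction and side of the threshold.

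The labels' replicate numbers could not be matched to the columns, so no pairing by them was possible. The columns' own numbers run in 3 rounds that each hold 1 library of every irradiated group, and a fit with these rounds as a block was added after seeing the data. It leaves out the proliferating libraries, so it was set beside a fit of the same 18 libraries without the block. Both fits left 1 member called between the CCND1 and CDK6 knockdowns and lost the calls on CCNE2 in the CCND1 knockdown (limma adjusted p = 0.057 without the block and 0.0693 with it) and CCNA2 in the CDK6 knockdown (0.0672 and 0.0824). In the CDK4 knockdown the call on CCNB2 was lost without the block (limma adjusted p = 0.0655) and kept with it (0.0493), and that on CCNA2 was kept without it (0.0461) and lost with it (0.0598). The block changed the count of called genes by a factor of 0.98 to 1.03 in the 11 comparisons it could be fitted to. To look for a shared effect of the rounds, each group's mean was subtracted from every gene, and libraries of different groups were correlated on what was left. Those of the same round had a median r of 0.037 over 45 pairs (range -0.11 to 0.10). Those of different rounds had a median of -0.017 over 90 pairs (range -0.14 to 0.16), and 13 of 18 libraries correlated best with their own round.

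Depth limits CCNE2 most, in the dual knockdown (8, 26 and 19 reads) and the CDK6 knockdown (36, 27 and 32 reads). CCNB2 (43, 50 and 48 reads) and CCNA2 (50 in its lowest library) also rest on few reads in the dual knockdown. With 1 siRNA a target, 3 libraries a group and controls that differ for CCNE1, the values of CCNE1 depend on the control siRNA, as given above.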

Other observations

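Other cyclins of the superfamily were measured beside the 6. The D-type cyclin genes CCND1, CCND2 and CCND3, which act before the E cyclins, were all higher in the irradiated controls than in proliferating cells, by 1.23, 5.01 and 0.88 on the log2 scale. All 3 were also higher in the CDK6 knockdown (0.53, 0.45 and 0.32) and in the dual knockdown (0.53, 0.29 and 0.27) than in the controls, each called by limma. Of all 11579 tested genes, 32.6% were called higher in the controls than in proliferating cells. In the CDK6 knockdown 2444 were called higher, and in the dual knockdown 22.5%. All 3 were also higher with NT4 than with NT3, by 0.54, 0.22 and 0.21 (limma adjusted p from 0.0002 to 0.0137), where 1699 of all tested genes were. The rises in the CDK6 and dual knockdowns are therefore smaller against NT4 alone, which was not tested for these genes. In the CDK4 knockdown CCND1 was called higher than the pooled controls (0.31), CCND2 fell (-0.44) and CCND3 did not pass (0.01, limma adjusted p = 0.929). The CCND1 values there were 49482, 47509.6 and 45723, above the 33969, 36692 and 25615 with NT3 and overlapping the 44546, 48813 and 45546 with NT4. The germline and meiotic relatives CCNA1 and CCNB3 were below the filter, with group means of at most 1.98 and 5.72.

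Of 14 cyclins outside the cell cycle engine, which act in transcription, splicing or stress responses, 11 were tested. The controls against proliferating cells had 3 higher and 4 lower, or 27.3% and 36.4%, where 32.6% and 36.1% of all tested genes were. The dual knockdown against the controls had 2 higher and 6 lower (median -0.14), or 18.2% and 54.5%, where 22.5% and 21.5% of all tested genes were. CCNT1, the cyclin of the elongation factor P-TEFb, fell most in the dual knockdown, by 0.58 (limma adjusted p = 0.00011), and CCNL2, a splicing cyclin, rose most, by 0.34 (adjusted p = 0.00152). In the CDK4 knockdown CCNJ rose by 0.31 and CCNG2 fell by 0.24 (limma adjusted p = 0.015 and 0.0208). By limma 0 of the 11 departed from the sum of the single knockdowns, 0 at an unadjusted p under 0.05, and edgeR and DESeq2 called 0 as well.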
